A study of Mus musculus with 8 samples.

Results

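The mutant-dependent share of a growth hormone response is the difference in what the hormone does to each gene between cells carrying 2 mutants of the transcription factor STAT5. It was measured here for every probe set as the log2 change with hormone in cells carrying the EA mutant minus the log2 change with hormone in cells carrying the YF mutant. The probe sets described were chosen by their mean log2 value over all 8 arrays, which had to reach 4. Of 45037 probe sets that are no array controls, 20264 (45%) met this bound and 24773 (55%) lay below it. The size of the difference played no part in the choice. The probe set just inside the bound had a difference of -0.93 and the one just outside it had -0.79, each at a mean of 4.00 after rounding. Of the 20264 probe sets, 18263 carried 1 gene symbol and covered 10779 genes, 518 carried several symbols and 1483 carried none.

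The cells on all 8 arrays were Stat5-null mouse embryonic fibroblasts (strain C57BL/6) into which retroviral infection had brought a STAT5 mutant, and the series title names STAT5A. EA arrays came from cells whose STAT5 has a change from EE to AA in what the labels call a binding domain, and YF arrays from cells whose STAT5 has Y694F at the phosphorylation site. Cells of either mutant were unstimulated or had been given growth hormone for 120 minutes, and each of these 4 groups had 2 arrays. The null background and the retroviral vector are thus shared by every group. Cells with wild-type STAT5 or an empty vector are not analysed here, so each value compares cells of 1 mutant with cells of the other. An effect of the mutant and one of the cell population that carries it cannot be told apart. The hormone dose, the promoter that drives the mutants and whether a line descends from 1 infected clone are not stated in the sources used here.

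Growth hormone binds a receptor at the cell surface that carries the kinase JAK2, and JAK2 phosphorylates STAT5 on a conserved tyrosine. Phosphorylated STAT5 pairs, enters the nucleus and binds a palindromic DNA element, where it is known to raise feedback inhibitors such as Socs2 and Cish and to lower the repressor gene Bcl6. The receptor also signals without STAT5, through MAP kinases and other routes, and fibroblasts answer many stimuli with a burst of chemokine and immediate early genes.

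Of the markers of the labelled cell type, 13 of 13 fibroblast genes, Col1a1, Vim and Pdgfrb among them, had means of 4 or more. The same bound was met by 4 of 8 measured adipocyte genes, with Fabp4 at 12.23 and Lpl at 10.35, by 3 of 13 macrophage genes, by 2 of 12 each for endothelial, epithelial and skeletal muscle genes, and by 0 of 9 lymphocyte genes. Stat5a RNA itself differed between the mutants, at 4.83 and 5.36 in unstimulated EA cells against 7.95 and 7.82 in unstimulated YF cells, a gap of -2.79 (SE 0.32, adjusted p = 0.0071 in limma). Its difference of responses was -0.83 (SE 0.45, n = 2 arrays a group, limma adjusted p = 0.45). Whether its probe set also reads the introduced mutant is not given in the sources used here, so it does not check the labels. Ghr, which encodes the receptor, had a difference of -0.00 (SE 0.06, adjusted p = 0.97 in limma) on its brightest probe set. YF with hormone replicate 1 lay away from the rest, at 50.9 on a second principal component that held 12% of the variance, where its partner had 3.04. The SD of the difference between the arrays of a group was 0.438 for YF with hormone, 0.350 for EA with hormone, 0.304 for EA and 0.286 for YF without. Results that rest on this array are therefore also given without it, and for counts by class and by list this alternative was chosen after seeing the data.

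Most genes showed small differences between the mutants' responses. Over the 20264 probe sets the difference had a median of -0.08, with quartiles of -0.34 and 0.19 and an SD of 0.494, and single values ran from -3.61 to 5.15. It lay above 0 for 8374 probe sets and below 0 for 11890. The YF response was the more spread of its 2 parts, with an SD of 0.406 around a median of 0.05, against 0.311 around -0.02 for the EA response. Calls were made with limma at a Benjamini-Hochberg adjusted p under 0.05 over all 45037 probe sets. By that rule 9 probe sets (0.0200%) were called for the difference, and 4 of these, which is 0.0197% of the 20264, had a mean of 4 or more. The share among members is near the background, so it says nothing particular about them. The 4 were Ch25h and Ccl20 with a higher response in EA cells and Bcl6 and Elf2 with a lower one. Of these, Ccl20 met the bound on the mean only through its arrays with hormone. At unadjusted p below 0.05 there were 3359 (16.6%), of which 1311 were higher and 2048 lower in EA cells. Leaving out any of the 4 unstimulated arrays left 0 calls in limma, with 2051 to 2967 at unadjusted p below 0.05. Leaving out EA with hormone replicate 1 or 2 gave 19 or 3 calls, and leaving out YF with hormone replicate 1 or 2 gave 2 or 66. The replicate block and a fit of the 20264 probe sets alone gave 0 calls each, with 3346 and 2459 at unadjusted p below 0.05, and a variance trend gave 2, Bcl6 and Socs2. Over 14 such alternatives Ccl20 was called in 7, Ch25h in 6, Bcl6 in 5 and Elf2 in 4.

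The separate responses were called more often than their difference. In EA cells 61 of 45037 probe sets were called (0.135%), 48 of them with a mean of 4 or more, and in YF cells 81 (0.180%), 58 of them with a mean of 4 or more. Both fits called 16 of these. Among the 48 called in EA cells, 3 were also called for the difference and 32 had unadjusted p below 0.05 for it. Among the 58 called in YF cells the corresponding numbers were 2 and 42. A call in 1 mutant without a call in the other is thus no measure of a difference, and the tests of the difference are used below.

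**Figure D1:**
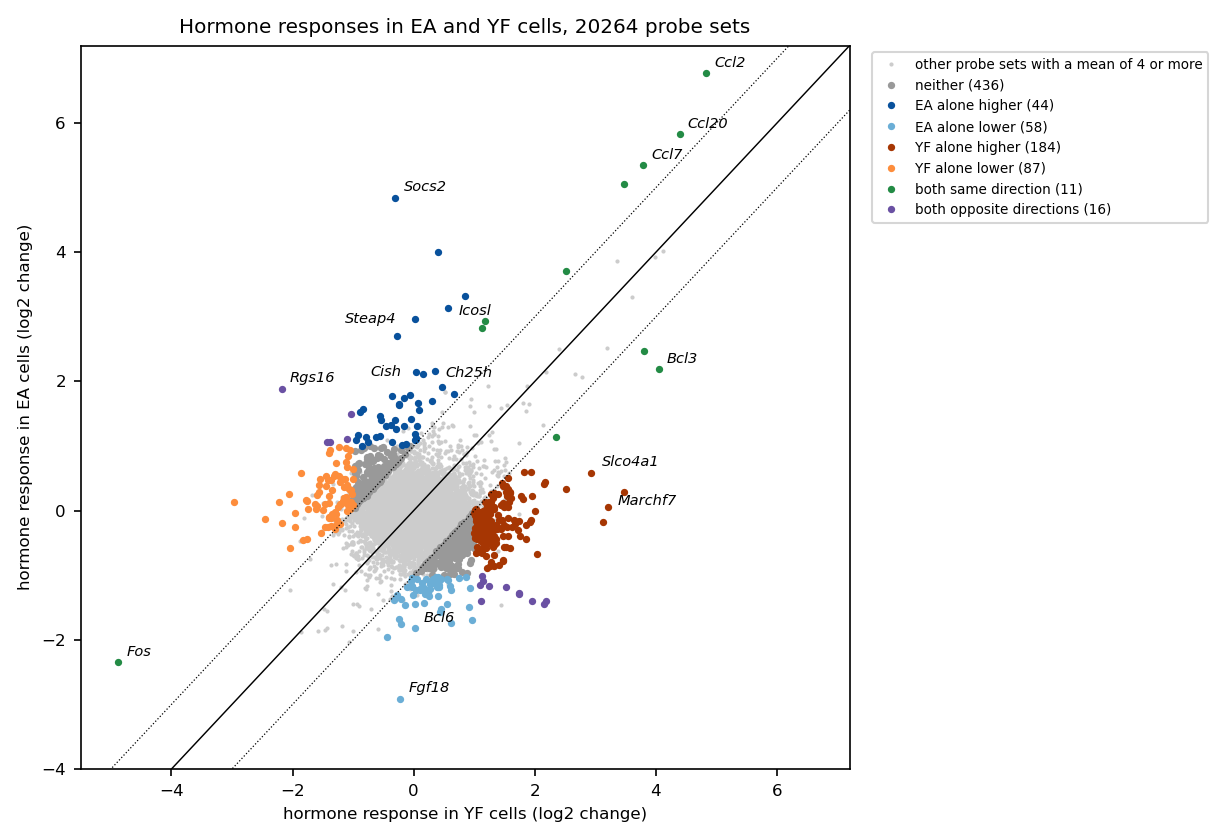
Log2 change with growth hormone in YF cells (x axis) against the same in EA cells (y axis), 1 point for each of 20264 probe sets, on means of 2 arrays a group. The solid line marks equal responses and the dotted lines a difference of 1 in either direction. Coloured points have a difference of 1 or more and array-pair changes that do not overlap, and the legend counts them by class. Socs2 lies far above the line with a YF change of -0.30, and Fos lies at the lower left because both mutants had a negative change.

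Genes of the STAT5 list carried the largest single difference. Socs2, a feedback inhibitor of cytokine receptors, had log2 values of 6.29 and 6.64 in unstimulated EA cells and 11.34 and 11.27 with hormone. In YF cells the values were 7.10 and 6.25 without and 6.65 and 6.08 with hormone. Only the EA arrays with hormone were high, and the YF arrays overlapped between treatments. The difference was 5.15 (SE 0.47, 95% interval 3.94 to 6.35), the highest of all 20264, but it missed the threshold in limma (adjusted p = 0.10). The EA change of 4.84 passed (SE 0.34, adjusted p = 0.029 in limma) and the YF change of -0.30 did not (SE 0.34, adjusted p = 0.59). A second Socs2 probe set had a mean of 3.98, just under the bound, and was called for a difference of 5.11 (SE 0.23, limma adjusted p = 0.025). It read 2.39 and 2.49 in EA, 7.99 and 7.93 in EA with hormone, 2.37 and 2.73 in YF, and 3.14 and 2.77 in YF with hormone. The other 4 Socs2 probe sets stayed between 2.03 and 2.72 on every array.

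Cish, a feedback inhibitor of the same family, followed the same pattern at a lower level. Its EA arrays read 4.69 and 4.67 without and 6.90 and 6.76 with hormone, and its YF arrays 3.65 and 3.63 without and 4.02 and 3.35 with hormone. The EA arrays with hormone stood above all others, while the YF arrays lay near or below 4, where the scale of a value is uncertain. The difference was 2.11 (SE 0.30, adjusted p = 0.20 in limma) and did not pass. Without YF with hormone replicate 1 it was 2.44 and passed (adjusted p = 0.038 in limma).

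Bcl6, a transcriptional repressor, was the abundant gene among the calls and had the opposite sign. Its EA arrays read 12.45 and 12.38 without and 10.56 and 10.63 with hormone, and its YF arrays 12.28 and 12.15 without and 12.29 and 12.19 with hormone. Only the EA arrays with hormone were low, and the other 6 arrays lay within 12.15 to 12.45. The difference was -1.85 (SE 0.09, 95% interval -2.08 to -1.61, adjusted p = 0.025 in limma). Bcl6 fell in EA cells by 1.82 (SE 0.07, adjusted p = 0.0047 in limma), against 0.02 in YF cells (SE 0.07, adjusted p = 0.80). The difference was -1.80 without YF with hormone replicate 1 and then missed the threshold (adjusted p = 0.064 in limma). A second Bcl6 probe set had group means of 2.03 to 2.77 and is no member.

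The promoters of Cish and Bcl6 are shown because both genes are STAT5 targets whose responses went in opposite directions in EA cells and were near 0 in YF cells. Each window runs from 250 bases before to 50 after a transcription start of RefSeq (build GRCm38.p6), 5′ to 3′ on the gene's strand. Capitals mark matches to the STAT5 palindrome TTCNNNGAA, which reads the same way on both strands. Cish lies at chr9:107296409-107296708 on the plus strand, and the Bcl6 window shown lies at chr16:23981234-23981533 on the minus strand.
Cish: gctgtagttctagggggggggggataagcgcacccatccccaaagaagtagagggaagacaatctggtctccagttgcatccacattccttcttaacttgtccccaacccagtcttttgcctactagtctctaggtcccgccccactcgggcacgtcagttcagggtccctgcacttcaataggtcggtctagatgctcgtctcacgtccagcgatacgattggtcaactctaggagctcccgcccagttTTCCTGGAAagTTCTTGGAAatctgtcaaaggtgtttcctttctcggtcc
Bcl6: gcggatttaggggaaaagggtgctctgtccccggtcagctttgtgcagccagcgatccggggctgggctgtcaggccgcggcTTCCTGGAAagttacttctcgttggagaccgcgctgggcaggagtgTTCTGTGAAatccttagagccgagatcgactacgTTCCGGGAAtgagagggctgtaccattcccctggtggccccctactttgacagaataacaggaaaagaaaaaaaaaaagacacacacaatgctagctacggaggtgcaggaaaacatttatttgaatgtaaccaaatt
The Cish window held 2 matches, TTCCTGGAA beginning 0 and TTCTTGGAA beginning 11 bases after the start. The Bcl6 window held 3, TTCCTGGAA, TTCTGTGAA and TTCCGGGAA, beginning at -168, -122 and -88 from the start, and a second Bcl6 window at chr16:23988803-23989102 held TTCTCAGAA at -118. Such a match was in 8.30% of all 32851 promoter windows and in 6.67% of the 11336 windows of genes with a probe set described here. A match is a description of letters and no evidence of binding.

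The rest of the STAT5 list had values on both sides of 0, and none of them passed. Of its 24 measured genes 17 had a probe set with a mean of 4 or more, and a gene stands by its brightest one. Bcl6 was the 1 called in limma, and at unadjusted p below 0.05 there were 3 higher, Socs2, Cish and Lifr, and 2 lower, Bcl6 and Ccnd1. The list's median difference was 0.05, with 9 values above and 8 below 0, against a median of -0.09 over 10779 genes, of which 682 were higher and 1035 lower at the same p. Lifr, the leukaemia inhibitory factor receptor, differed by 0.73 (SE 0.15) and Ccnd1, cyclin D1, by -0.28 (SE 0.08), with adjusted p of 0.31 and 0.45 in limma. Myc had -1.16 (SE 0.77), Igf1 0.92 (SE 0.62), Gadd45g 0.75 (SE 0.59), Socs3 0.47 (SE 0.25) and Nox4 0.35 (SE 0.28). The survival and cell cycle genes Bcl2l1, Bcl2l11, Mcl1, Cdkn1a, Cdkn2b, Ccnd2 and Pim1 lay between -0.21 and 0.18, and the directions of Bcl2l11, Cdkn1a and Pim1 changed under an alternative given in the closing section. Igf1, which encodes the growth factor through which growth hormone acts on growth, was low in EA cells, at 3.68 and 5.05 without hormone, and high in YF cells, at 9.55 and 9.49. Upstream of STAT5, 23 genes of growth hormone and JAK signalling had a median of -0.12 with 0 higher and 3 lower at unadjusted p below 0.05 and 0 called in limma. The largest was Sh2b1, an adaptor of JAK2, at -1.16 (SE 0.22, adjusted p = 0.29).

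**Figure D2:**
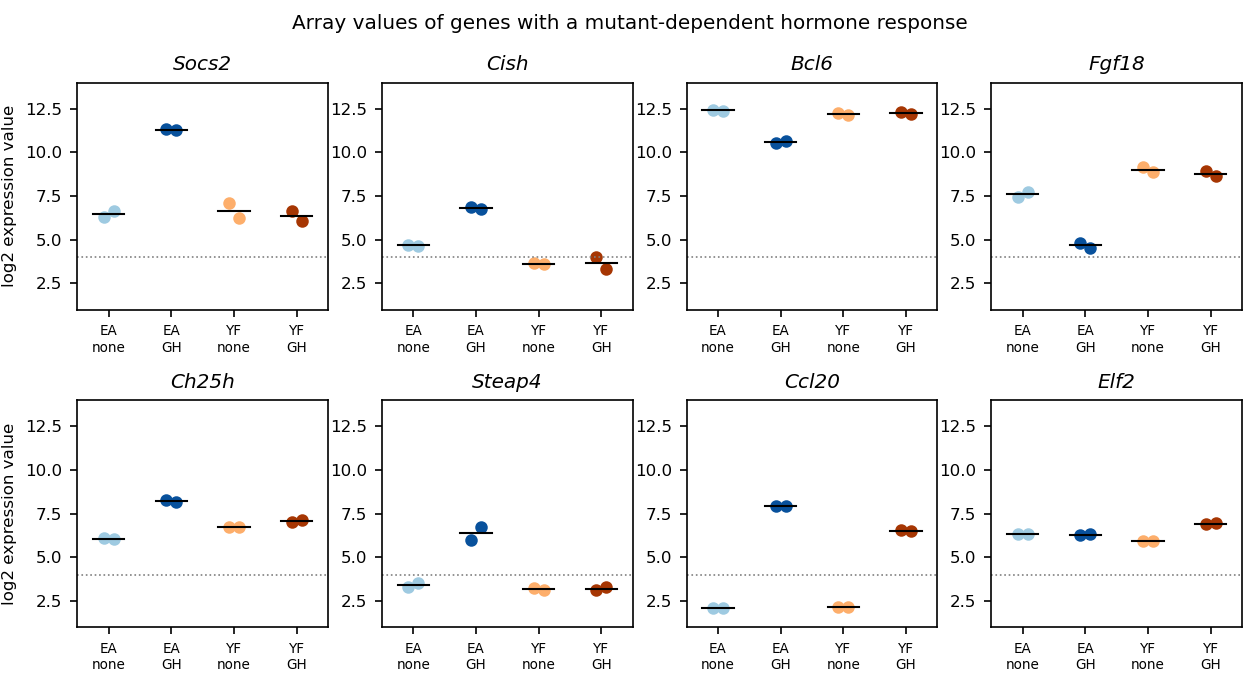
Log2 expression value of each array for 8 genes, with 2 points a group and a bar at the group mean. GH marks growth hormone for 120 minutes and the dotted line marks a value of 4. Socs2, Cish, Steap4 and Ch25h are highest in EA cells with hormone, Bcl6 and Fgf18 are lowest there, Ccl20 is high with hormone in either mutant, and Elf2 is highest in YF cells with hormone.

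Outside the STAT5 list, Ch25h had a rise of more than 1 in EA cells and a smaller one in YF cells. Ch25h encodes cholesterol 25-hydroxylase, which makes an oxysterol that damps sterol synthesis and attracts immune cells. Its EA arrays read 6.08 and 6.03 without and 8.27 and 8.17 with hormone, and its YF arrays 6.72 and 6.76 without and 7.04 and 7.13 with hormone. The arrays of the 4 groups did not overlap, and EA cells went from the lowest to the highest group. The gap between EA and YF was -0.68 without hormone (SE 0.05, adjusted p = 0.0024 in limma) and 1.14 with it. The difference was 1.82 (SE 0.07, 95% interval 1.63 to 2.0, adjusted p = 0.025 in limma). Ch25h rose in EA cells by 2.16 (SE 0.05, adjusted p = 0.0019 in limma), and its YF change of 0.35 missed the threshold (SE 0.05, adjusted p = 0.14). The difference was 1.77 without YF with hormone replicate 1, with an adjusted p of 0.050 in limma that just missed the threshold. Cyp7b1, which hydroxylates the oxysterol that Ch25h makes, had differences of 1.40 (SE 0.70) and 1.45 (SE 0.55) on its 2 probe sets, both with an adjusted p of 0.45 in limma. Of 18 sterol genes Ch25h was the 1 called, 2 were higher and 1 lower at unadjusted p below 0.05 (3 and 0 without YF with hormone replicate 1), and the median was 0.03.

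Steap4, a metalloreductase of inflamed and fat tissue, was seen in EA cells with hormone and near the low values elsewhere. Its arrays read 3.28 and 3.53 in EA, 6.0 and 6.76 in EA with hormone, 3.24 and 3.11 in YF, and 3.12 and 3.28 in YF with hormone. The difference was 2.94 (SE 0.36, adjusted p = 0.16 in limma), and the gene met the bound on the mean, at 4.04, only through the EA arrays with hormone. Its EA change of 2.97 from below 4 is therefore given with no test. Its promoter, at chr5:7960222-7960521 on the plus strand, is shown because it held both a STAT5 and a kappa B match, in capitals.
Steap4: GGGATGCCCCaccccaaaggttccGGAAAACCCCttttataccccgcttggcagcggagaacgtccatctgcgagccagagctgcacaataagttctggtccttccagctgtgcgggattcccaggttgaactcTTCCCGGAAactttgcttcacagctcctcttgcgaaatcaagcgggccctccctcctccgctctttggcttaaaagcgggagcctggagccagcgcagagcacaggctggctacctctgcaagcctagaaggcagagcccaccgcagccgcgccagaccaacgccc
The STAT5 match TTCCCGGAA begins at -116, and the kappa B matches GGGATGCCCC and GGAAAACCCC begin at -250 and -226. The kappa B consensus, searched on both strands, is the element bound by NF-kB, and 8.46% of all windows and 10.4% of those of genes described here held it.

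Fgf18, a secreted fibroblast growth factor of bone and lung development, had the largest negative response of EA cells alone. Its EA arrays read 7.43 and 7.76 without and 4.83 and 4.54 with hormone, and its YF arrays 9.14 and 8.89 without and 8.94 and 8.64 with hormone. The EA arrays with hormone lay below all others, and the EA arrays were below the YF arrays before hormone as well. Fgf18 fell in EA cells by 2.91 (SE 0.19, adjusted p = 0.025 in limma), while the difference of -2.69 missed the threshold (SE 0.26, adjusted p = 0.11). Of 9 genes of the fibroblast growth factor list 0 were called in limma and 2 were lower at unadjusted p below 0.05, Fgf18 and Fgf7, the latter at -0.30.

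Several genes had more than 1 probe set in the same class, and these were chosen after their values were seen. Cdk6, a kinase that drives entry into the cell cycle, read 8.81 and 9.10 in EA, 10.25 and 10.19 in EA with hormone, 9.11 and 9.14 in YF, and 8.87 and 8.79 in YF with hormone on its brighter probe set. Cdk6 rose in EA cells on both probe sets, by 1.27 and 1.31 (limma adjusted p = 0.040 and 0.028). The differences were 1.56 (SE 0.14) and 1.46 (SE 0.12), with adjusted p of 0.10 and 0.095 in limma. Vcam1, an adhesion molecule for leukocytes, had differences of 1.90, 1.96 and 1.46 on 3 probe sets (adjusted p = 0.20 to 0.43 in limma). Npr3, the clearance receptor of natriuretic peptides, had -1.46 and -1.51 on 2 probe sets and -0.26 on its brightest, with adjusted p of 0.43 to 0.50 in limma.

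Of 17 chemokines 6 rose in EA cells and 6 in YF cells in limma, and of 24 NF-kB genes 5 rose in EA cells and 5 in YF cells. Over 10779 genes 22 rose in EA cells and 22 in YF cells by the same rule. The chemokine counts include Ccl20, which met the bound on the mean only through its arrays with hormone. The YF count also includes Cxcl2, which met it in the same way. For the difference between the mutants, 1 gene of these 2 lists was called, Ccl20, a chemokine for dendritic cells and lymphocytes. Its EA arrays read 2.10 and 2.11 without and 7.91 and 7.96 with hormone, and its YF arrays 2.15 and 2.13 without and 6.55 and 6.51 with hormone. Unstimulated arrays of both mutants lay in the low values below 4, so the size of each rise is uncertain, while the gap with hormone lay above them. The difference was 1.44 (SE 0.05, 95% interval 1.32 to 1.57, adjusted p = 0.022 in limma). Its SE also draws on the low unstimulated arrays, with SDs of 0.007 in EA and 0.016 in YF cells, against 0.033 and 0.025 with hormone. The call is thus given with that limit. The change was 5.83 in EA and 4.39 in YF cells, both given with no test because the gene met the bound on the mean only through the arrays with hormone. The gap of 1.40 between EA and YF with hormone rests on the same arrays and SE, so it adds no separate evidence (SE 0.03, adjusted p = 9.8e-05 in limma). The difference was 1.46 without YF with hormone replicate 1 and still passed (adjusted p = 0.040 in limma), but adjusted p was 0.17 under the replicate block and up to 0.34 over the 14 alternatives. The Ccl20 promoter, at chr1:83116516-83116815 on the plus strand, is shown because the kappa B element is its 1 match among the motifs searched.
Ccl20: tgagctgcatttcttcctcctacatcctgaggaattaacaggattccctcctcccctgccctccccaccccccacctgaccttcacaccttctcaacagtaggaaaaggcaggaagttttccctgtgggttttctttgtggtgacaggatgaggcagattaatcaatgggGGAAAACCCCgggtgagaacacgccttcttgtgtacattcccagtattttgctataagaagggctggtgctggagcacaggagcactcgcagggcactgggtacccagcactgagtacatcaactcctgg
The match GGAAAACCCC begins at -80.

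Other chemokines had differences of similar size and wider errors. Ccl2, a monocyte attractant, read 5.92 and 5.94 in EA, 12.72 and 12.68 in EA with hormone, 6.49 and 8.0 in YF, and 12.14 and 12 in YF with hormone. Its difference was 1.94 (SE 0.66, adjusted p = 0.45 in limma), and the unstimulated YF arrays lay far from each other. Ccl7, its neighbour in function, had 1.56 (SE 0.25, adjusted p = 0.24), and Cxcl5, a neutrophil attractant, had 1.58 (SE 0.60, adjusted p = 0.45). Of 25 measured chemokines 17 were members, Ccl20 was called, 6 were higher and 3 lower at unadjusted p below 0.05, and the median was 0.17, against -0.09 over all 10779 genes. The counts were 4 higher and 4 lower without YF with hormone replicate 1. Cxcl2 had the opposite sign, at -1.33 (SE 0.34, adjusted p = 0.40), as did Ccl5, at -1.22 (SE 0.63, adjusted p = 0.45), and both were chosen after their values were seen. Cxcl2 read 2.52 to 2.60 without hormone in both mutants and met the bound, at a mean of 4.13, only through its arrays with hormone. The size of its difference is thus uncertain.

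NF-kB genes had values on both sides of 0, and 0 of them passed for the difference. Bcl3, a nuclear cofactor of NF-kB, read 7.49 and 7.12 in EA, 9.61 and 9.37 in EA with hormone, 4.96 and 5.16 in YF, and 9.33 and 8.88 in YF with hormone. The YF cells began lower and ended close to the EA cells, and the difference was -1.86 (SE 0.29, adjusted p = 0.23 in limma). Tnfaip3, a feedback inhibitor of NF-kB, had 1.20 (SE 0.43, adjusted p = 0.45). Icosl, a ligand that costimulates T cells, read 3.75 and 4.10 in EA, 6.75 and 7.36 in EA with hormone, 6.71 and 6.84 in YF, and 7.11 and 7.57 in YF with hormone. Its EA cells began low and reached the YF range, for a difference of 2.56 (SE 0.37, adjusted p = 0.20 in limma). Of the 24 NF-kB genes 0 were called in limma, 4 were higher and 2 lower at unadjusted p below 0.05, and the median was -0.04. These counts were 3 and 1 without YF with hormone replicate 1.

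Markers of macrophages, which make chemokines, also differed between the groups. Their summed log2 value over 13 genes ran from 53.4 to 55.1 in EA and 50.7 to 52.5 in EA with hormone. In YF it ran from 46.3 to 47.2, and in YF with hormone from 48.6 to 48.6. Single differences of responses ran from -2.04 for Mrc1 to 0.34 for Fcer1g, both with means below 4. Of the 13, 3 had means of 4 or more, Cd68, Csf1r and Cd14, and the defining markers Ptprc and Adgre1 lay at 2.50 and 2.37. Their part in the result was not tested. In bulk RNA, fewer cells of a type and less RNA per cell cannot be told apart.

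Immediate early genes answer growth factors within minutes, and 0 of 29 were called for the difference in limma. Fos read 8.39 and 8.18 in EA, 5.73 and 6.15 in EA with hormone, 10.57 and 11.34 in YF, and 6.03 and 6.13 in YF with hormone. The arrays with hormone lay close together in both mutants, and the unstimulated YF arrays were the highest. Fos fell in YF cells by 4.87 (SE 0.28, adjusted p = 0.019 in limma), and its EA change was -2.34 (SE 0.28, adjusted p = 0.11), for a difference of 2.53 (SE 0.40, adjusted p = 0.23). Ier2 differed by 1.98 (SE 0.68, adjusted p = 0.45), Zfp36, which destabilises inflammatory messages, by 1.70 (SE 0.38, adjusted p = 0.34), and Nr4a3, a nuclear receptor, by 1.85 (SE 0.49, adjusted p = 0.42). In Ier2 and Zfp36 the unstimulated YF arrays were again the high ones, whereas Nr4a3 was low in unstimulated EA cells. Of the 29 genes 7 were higher and 3 lower at unadjusted p below 0.05, and the median was 0.15. Without YF with hormone replicate 1 the counts were 7 and 2, and the median was -0.00.

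Dusp5 and Dusp6, phosphatases that switch off ERK, differed by 1.93 (SE 0.27, adjusted p = 0.20 in limma) and 1.46 (SE 0.41, adjusted p = 0.44). Dusp5 read 5.79 and 5.83 in EA, 6.67 and 6.62 in EA with hormone, 5.13 and 5.69 in YF, and 4.44 and 4.21 in YF with hormone, so the mutants' changes had opposite signs. Of 17 MAP kinase feedback genes 0 were called in limma, 3 were higher and 2 lower at unadjusted p below 0.05, and the median was -0.05. Without YF with hormone replicate 1 the counts were 2 and 1. Rgs16, which shortens G-protein signals, had the second-largest difference among the named genes, at 4.07 (SE 0.55, adjusted p = 0.18 in limma). It read 4.30 and 4.90 in EA, 5.96 and 7.03 in EA with hormone, 8.74 and 8.68 in YF, and 6.66 and 6.41 in YF with hormone, so that the mutants met after hormone from opposite sides.

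A difference of responses can thus sit in the unstimulated or in the stimulated cells. For 28 genes, the 4 called and the 12 largest differences in each direction with unadjusted p below 0.01, the gap between EA and YF was larger without hormone for 13 and larger with hormone for the others. Of the 28, 13 had a group mean below 4, beside 4.34% of the 20264 probe sets. Rgs16 had a gap of -4.11 without and -0.04 with hormone, Icosl -2.85 and -0.29, and Fos -2.67 and -0.14. Socs2 had -0.21 without and 4.94 with hormone, Steap4 0.23 and 3.18, and Bcl6 0.20 and -1.65. Over all 20264 probe sets the gap was larger without hormone for 50.2%, so the even split of the 28 is near the background. The remaining genes of this kind with a higher EA response were Tmem200a (2.42), Ptchd4 (2.41), Slc16a4 (2.33), 1810019D21Rik (2.32), Tra2b (2.12) and B3gnt5 (2.04), with adjusted p of 0.11 to 0.32 in limma.

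**Figure D3:**
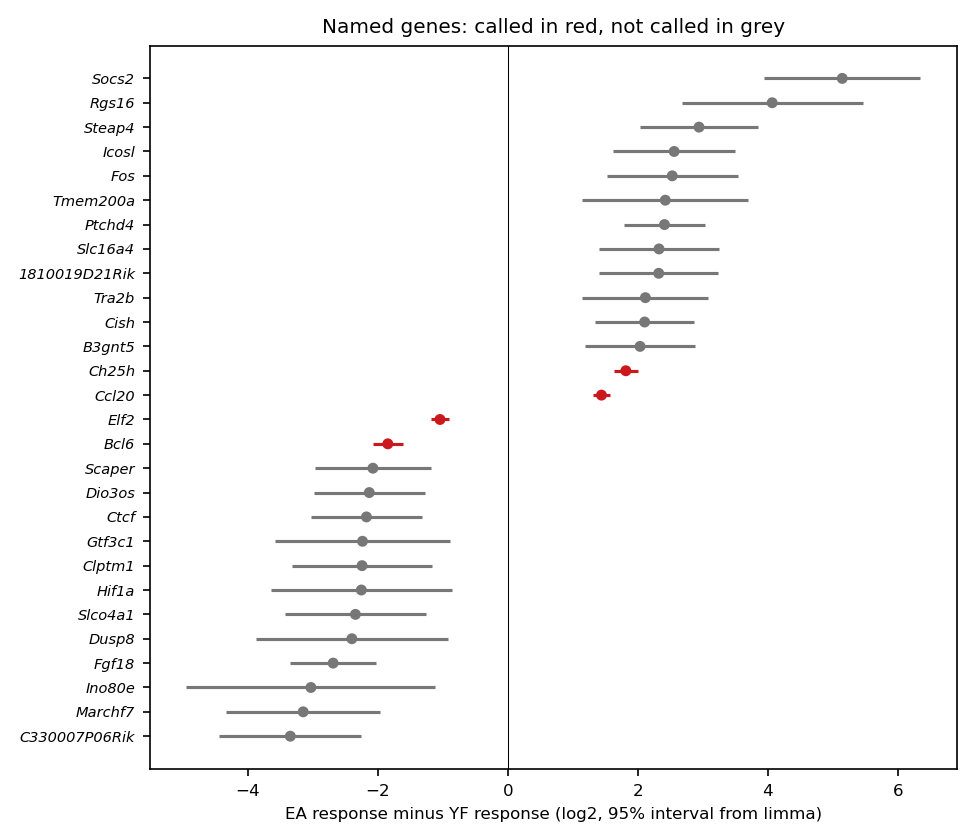
Difference of the responses (EA minus YF, log2, x axis) for the 28 named genes, with the 95% interval from limma as a line. The 4 called genes, in red, have the narrow intervals, from 1.32 to 1.57 for Ccl20, and larger differences such as 5.15 for Socs2 have wide ones and were not called.

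Several genes with a lower response in EA cells had a positive change in YF cells, and in many genes of either sign the probe sets disagreed. Elf2, a transcription factor of the ETS family, was called on 1 probe set that read 6.32 and 6.36 in EA, 6.27 and 6.33 in EA with hormone, 5.95 and 5.91 in YF, and 6.92 and 6.94 in YF with hormone. Elf2 rose in YF cells by 1.0 on it (SE 0.04, adjusted p = 0.0074 in limma), and the difference was -1.04 (SE 0.05, 95% interval -1.18 to -0.91, adjusted p = 0.025). A brighter Elf2 probe set had a difference of 0.07 (SE 0.30, adjusted p = 0.88 in limma), so the call was not shared. Without YF with hormone replicate 1 the called probe set had -1.05 and missed the threshold (adjusted p = 0.074 in limma). Marchf7, a ubiquitin ligase, had -3.15 (SE 0.47) on a probe set with a mean of 4.25. That probe set met the bound only through its YF arrays with hormone, at 5.17 and 5.90, so the size is uncertain. The brightest Marchf7 probe set, with a mean of 12.70, had 0.13 (SE 0.10). Others had -0.49 (SE 0.08) at a mean of 7.91 and 1.01 (SE 0.43) at 6.54. Ctcf, the chromatin insulator protein, had -2.17 (SE 0.34) at a mean of 5.84 and 0.22 (SE 0.05) at 12.19. Hif1a, the hypoxia factor, had -2.25 (SE 0.55) at 6.40 and 0.28 (SE 0.25) at 13.56. None of these passed in limma, with adjusted p of 0.21 to 0.49. Among genes with a higher EA response, Tra2b had 2.12 at a mean of 5.44 but 0.16 at 12.63 and 0.00 at 9.71, and Slc16a4 had 2.33 on one probe set and 0.21 on a slightly brighter one. Low and bright probe sets also differed for C330007P06Rik, Ino80e, Clptm1, Gtf3c1 and Scaper, whose low probe sets had differences of -3.35 to -2.08 and whose brightest ones had -0.56 to 0.56. Dusp8 (-2.40), Slco4a1 (-2.34) and Dio3os (-2.13) completed the 12 largest negative differences. A slightly brighter Dusp8 probe set had -0.44 (SE 0.31), and a brighter Slco4a1 probe set had -0.05 (SE 0.55). The Slco4a1 probe set with -2.34 met the bound only through its YF arrays with hormone, at 6.96 and 7.14, so its size is uncertain. Sox4 and Srrm1, chosen after their values were seen, had 3 and 2 probe sets with a YF change of 1 or more and differences of -2.29 to -1.36, whereas their brightest probe sets had 0.29 and 0.13.

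By size alone, 1069 of the 20264 (5.28%) had a difference of 1 log2 unit or more, which is a 2-fold difference in response. Of these, 836 also had 4 EA array-pair changes, each hormone array minus each unstimulated one, that did not overlap the 4 YF changes. That is 4.13% of the 20264, 299 higher and 537 lower in EA cells, and 171 of them (20.5%) had a group mean below 4. These 836 were selected on the difference itself, so their counts describe it and are no test. Where a change of 1 or more counts as a response, EA cells alone responded in 44 higher and 58 lower, and YF cells alone in 184 higher and 87 lower. Both responded in the same direction in 11 and in opposite directions in 16, and neither reached 1 in the remaining 436. The 11 were Ccl2, Ccl5, Ccl7, Ccl20, Cxcl2, Cxcl5, Bcl3, Tnfaip3, Fos, Gch1 and Casp4, of which the last 2 were named after their values were seen. Gch1 is among them on a probe set with a mean of 5.43. A brighter Gch1 probe set, at 6.41, was higher in EA alone, with changes of 3.32 in EA and 0.86 in YF cells.

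The classes were chosen on a difference of 1 or more with all arrays, so leaving out an array could not raise their counts. Of the 836 probe sets in all classes, 529 still had 1 or more with the same sign without YF with hormone replicate 1. Without EA with hormone replicate 2 there were 558, and without any other single array 681 to 790. The arrays with the largest losses are given by class. Leaving out YF with hormone replicate 1, 43 of the 44 higher and 52 of the 58 lower in EA alone still had a difference of 1 or more with the same sign. For YF alone these were 145 of 184 higher and 59 of 87 lower, and for neither 204 of 436. Leaving out EA with hormone replicate 2, these were 41 of 44 and 44 of 58 for EA alone, 148 of 184 and 69 of 87 for YF alone, and 229 of 436 for neither. Replicate 1 was above replicate 2 of YF with hormone in 73.4% of those higher in YF alone, 72.4% of those lower in EA alone, 45.5% of those higher in EA alone and 24.1% of those lower in YF alone, against 53% of all 20264. EA with hormone replicate 1 was above its partner in 83.2%, 72.4%, 47.7% and 21.8% of these classes, against 59.2%. Where another probe set of the gene was measured, the brightest of the others had the same sign in 17 of 22 cases higher in EA alone, 23 of 32 lower in EA alone, 50 of 113 higher in YF alone and 28 of 36 lower in YF alone. The part of these arrays in these classes was not tested.

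**Figure D4:**
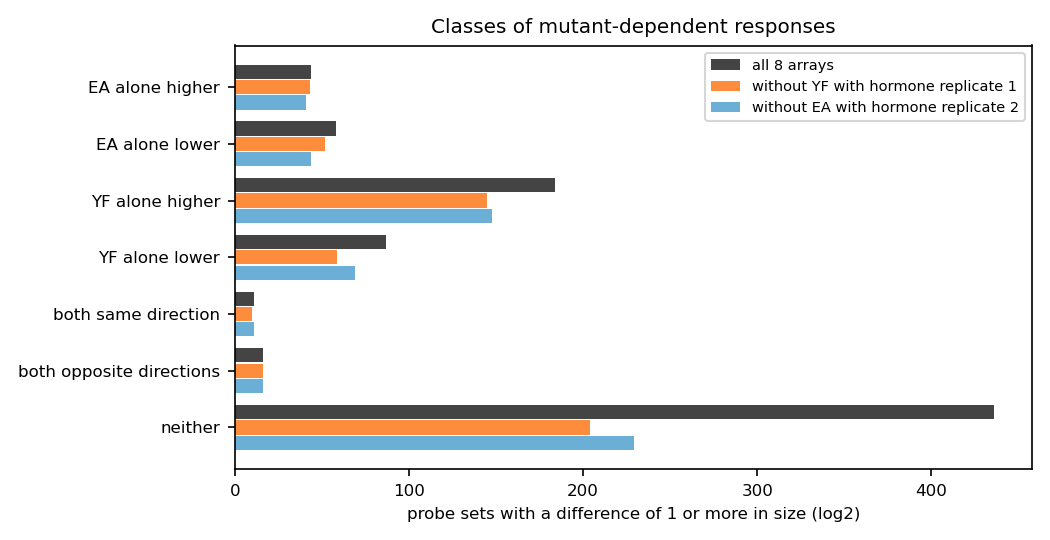
Number of probe sets with a difference of 1 or more in size (x axis) in each class of response. Black bars use all 8 arrays, and the coloured bars count those of the same probe sets that still had 1 or more with the same sign without YF with hormone replicate 1 or without EA with hormone replicate 2. The bar of YF alone higher goes from 184 to 145 and 148, that of EA alone higher from 44 to 43 and 41.

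The 836 differences of 1 or more with array-pair changes that do not overlap were concentrated at low means. They were 13.4% of the 2772 probe sets with a mean of 4 to 6, 8.81% of the 3723 from 6 to 8, 2.17% of the 4938 from 8 to 10, 0.540% of the 5187 from 10 to 12 and 0.0549% of the 3644 above. Bcl6, at a mean of 11.87, Vcam1, at 11.27, and Fst, at 11.01, were among the few such genes above 10. The median SE of the difference went from 0.393 in the lowest of these ranges to 0.109 in the highest.

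ATF4 genes lay mostly below 0, as did all genes to a lesser extent. Of 25 genes that ATF4, a factor of amino acid shortage, or the unfolded protein response is known to raise, 19 had a difference below 0, 10 were lower and 0 higher at unadjusted p below 0.05, and 0 were called in limma. Their median was -0.31, against -0.09 over 10779 genes, of which 6482 lay below 0 and 9.60% were lower at that p. Stc2, a secreted glycoprotein, had -0.94 (SE 0.23, adjusted p = 0.37), Sesn2, an inhibitor of growth signalling under amino acid shortage, -0.77 (SE 0.14, adjusted p = 0.27), Atf5, a partner of ATF4, -0.70 (SE 0.16, adjusted p = 0.34) and Nupr1, a stress-induced nuclear protein, -0.67 (SE 0.14, adjusted p = 0.31) in limma. Each had a negative EA and a positive YF change, and none was as large as 1. In Sesn2, for example, the arrays read 8.49 and 8.77 in EA, 8.15 and 8.22 in EA with hormone, 7.89 and 7.94 in YF, and 8.19 and 8.29 in YF with hormone. The count was again 0 higher and 10 lower without YF with hormone replicate 1.

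Interferon-stimulated genes had a median of -0.38 over 17, with 0 higher and 4 lower at unadjusted p below 0.05, 0 called in limma, with 0 and 5 without YF with hormone replicate 1 and 0 and 2 without EA with hormone replicate 2. Usp18, which restrains interferon signalling, had -1.57 (SE 0.57) with its YF side below 4, and Bst2, which tethers viruses, had -1.22 (SE 0.38), both at an adjusted p of 0.45 in limma. Oasl2 and Gbp2 went the other way, at 1.25 (SE 0.83) and 0.93 (SE 0.42). In the insulin-like growth factor system Igfbp3, a carrier protein, had 1.55 (SE 0.41, adjusted p = 0.42 in limma) and Stc1, which blocks a protease of these carriers, had -1.55 (SE 0.36, adjusted p = 0.35). Igfbp3 read 6.82 and 6.91 in EA, 7.83 and 7.54 in EA with hormone, 9.55 and 9.55 in YF, and 8.37 and 9.26 in YF with hormone.

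Signalling ligands and inhibitors of development gave scattered values. Fst, which binds activin, had 1.19 (SE 0.27, adjusted p = 0.34 in limma), and Bambi, a decoy receptor of the same pathway, had -1.04 (SE 0.37, adjusted p = 0.45), within a list of 32 with 3 higher and 5 lower at unadjusted p below 0.05, or 1 and 2 without YF with hormone replicate 1. Dkk2, a Wnt antagonist, had -1.33 (SE 0.35, adjusted p = 0.41), in a list of 23 with 1 higher and 4 lower. Nrg1 and Vegfb, growth factor ligands, had 1.22 (SE 0.26) and -1.32 (SE 0.48). Heat shock genes, another stress list, had 8 of 15 above 0 with 4 higher and 1 lower, led by Hspa1a at 1.10 (SE 0.26, adjusted p = 0.37), but 1 higher and 0 lower without YF with hormone replicate 1. The clock gene Nfil3 had -0.76 with a small error (SE 0.09, adjusted p = 0.16). The lists of hypoxia, glutathione, matrix, smooth muscle, DNA replication, mitotic, apoptosis, p53, clock and glucocorticoid genes had medians between -0.13 and 0.08. Of each, 0 were called in limma, and 0 to 3 were higher and 0 to 4 lower at unadjusted p below 0.05.

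**Figure D5:**
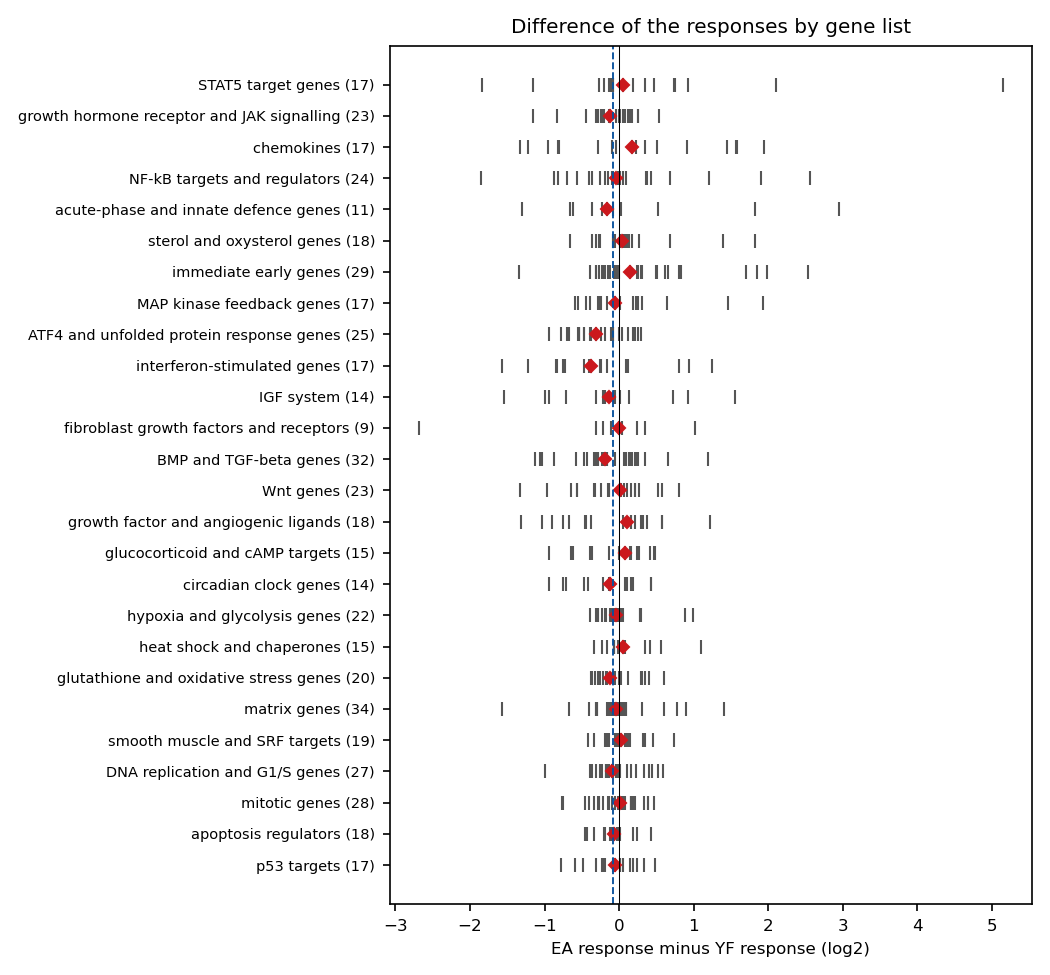
Difference of the responses (EA minus YF, log2, x axis) for every gene of 26 lists, 1 tick for each gene and a red diamond at the list median, with the number of genes in brackets. The dashed line is the median of -0.09 over 10779 genes. The diamonds of the interferon list (-0.38) and the ATF4 list (-0.31) lie farthest below it, and single genes such as Socs2 and Fgf18 stand far from their lists.

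Motif matches were counted over the promoter windows of the classes. The STAT5 palindrome was in 4 of 30 windows of genes higher in EA alone (13.3%), 9 of 70 lower in EA alone (12.9%), 6 of 173 higher in YF alone (3.47%) and 4 of 70 lower in YF alone (5.71%), beside 6.67% for genes described here. The kappa B consensus was in 8 of 9 windows of genes that responded in the same direction in both mutants (88.9%, 7 genes) and in 7 of 30 of those higher in EA alone (23.3%), beside 10.4%. It was in 3 of 16 windows of the class with opposite directions (18.8%) and 6 of 70 lower in EA alone (8.57%). For YF alone it was in 18 of 173 higher (10.4%) and 3 of 70 lower (4.29%). The AP-1 motif TGANTCA, searched on both strands, was in 2 of 30 windows higher and 5 of 70 lower in EA alone, beside 4.93%. In YF alone it was in 10 of 173 higher (5.78%) and 5 of 70 lower (7.14%), and in the class of neither in 29 of 366 (7.92%). A window counted once for each motif, and some genes have several overlapping windows. Of the 28 named genes 27 had a window, and 4 of these held a STAT5 match, 1 an AP-1 match and 8 a kappa B match. Here a gene counted if any of its windows held a match, so these counts cannot be set against the shares of windows above. A share of genes over all genes was not computed.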

How the data were processed

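RNA of 8 samples was measured on Affymetrix mouse arrays. The values are the authors' deposited log2 expression values, 1 column an array, and the submitters' processing notes name GCOS and RMA with no version or setting. They were used as deposited. Depth does not apply to arrays, and the number of arrays limits the precision.

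Sample groups came from the labels. The labels call the 2 arrays of a group a biological duplicate and name no separate infections, so p-values measure the spread between these arrays. Each probe set was fitted with 4 group means in limma 3.58.1 (R 4.3.3, lmFit and eBayes), and p-values were adjusted by Benjamini-Hochberg over all 45037 probe sets that are no controls. Adjusted p in the text are from that fit, as are SEs and intervals. "Higher" and "lower" refer to the EA response minus the YF response, and the fit was tested on simulated data. A value below 4 was taken as low.

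Genes were named from the platform annotation and promoters from RefSeq (GRCm38.p6). A gene in a list stands by its brightest probe set with a mean of 4 or more. Named genes are those called, the 12 largest differences in each direction with an unadjusted p under 0.01 and array-pair changes that do not overlap, all STAT5 targets, and up to 4 of each other list. Exceptions are marked as chosen after their values were seen. The members and lists were chosen with earlier results of these data known. Whether replicate numbers pair the samples is not known. The correlation of the replicate differences was 0.43 between the hormone groups and -0.38 between EA and YF with hormone, which does not settle it. Alternatives were array centring, quantile normalization, a variance trend, a robust fit, a fit of the members alone, other bounds, a replicate block and leaving out each array.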

Additional observations from a re-analysis of the deposited data

Results flagged for a closer look

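The differences between the mutants' responses of 4 genes passed their own test in limma. Bcl6, the repressor, had -1.85 (adjusted p = 0.025), with the 2 EA arrays with hormone below the other 6. Ch25h, the cholesterol 25-hydroxylase, had 1.82 (adjusted p = 0.025), and Ccl20, the chemokine, had 1.44 (adjusted p = 0.022) from unstimulated values below 4. Ccl20 met the bound on the mean only through its arrays with hormone, and the low arrays enter its SE. Elf2, the ETS factor, had -1.04 (adjusted p = 0.025) on a probe set that a brighter one of the same gene did not match.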

How the results depend on the processing

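Of 2016 values of 144 named probe sets under 14 alternative settings, 1966 kept their direction and side of the threshold, 34 lost a call, 8 gained one and 8 changed sign, in 5 genes. Only the 4 called probe sets could lose a call, so all 34 losses were theirs. Most of the 1966 come from probe sets with no call to lose, so that count is no measure of how stable the calls are. With 4 calls as the main result, a variance trend gave 2 (2807 at an unadjusted p under 0.05), the fit of the members alone 0 (2459) and the fit with a replicate block 0 (3346), and leaving out 1 array gave 0 to 66. The settings without EA replicate 1, EA replicate 2, YF replicate 1 and YF replicate 2 gave 0 each, with 2967, 2051, 2708 and 2384 at an unadjusted p under 0.05. Without EA with hormone replicate 1 there were 19 calls, without replicate 2 there were 3, without YF with hormone replicate 1 there were 2, and without replicate 2 there were 66. The cause was not tested. Bcl6 was called in 5 of the 14 settings (adjusted p = 0.0087 to 0.17 in limma), Ccl20 in 7 (0.014 to 0.34), Ch25h in 6 (0.028 to 0.17) and Elf2 in 4 (0.018 to 0.37). Whether the replicate numbers pair the samples is not known. Under the replicate block Bcl6, Ccl20 and Ch25h had an adjusted p of 0.17 in limma and Elf2 0.18. Differences kept their sign in all settings for these 4. Pim1 was -0.00497 after array centring, and leaving out 1 array gave -0.10 to 0.20 for Pim1, -0.11 to 0.47 for Bcl2l11, -0.17 to 0.0048 for Cdkn1a, -0.88 to 0.057 for Myl9 and -1.04 to 0.14 for Ptpn1. Centring moved the median of the members from -0.08 to -0.14 and quantile normalization to -0.02. Values below 4 limit what can be said of the size of a change.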
